A study of Mus musculus with 8 samples.

Results

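The thioredoxin, NADPH and detoxification genes are a list of 38 enzymes and small redox proteins, set by gene symbol and matched to the array's probe annotation. Of these, 32 were measured by a probe set annotated to a single gene symbol, out of 30718 genes measured in the series; the probe set of 1 of them, Ftl1, carries 3 gene IDs. Prdx1 and Tkt have only a probe set annotated to a further gene symbol and were left out, and Prdx5, Prdx6, G6pdx and Ugt1a6a were not analysed here.

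Thioredoxin is a small protein that reduces disulfide bonds in other proteins and is itself recharged by thioredoxin reductase at the expense of NADPH. Peroxiredoxins use thioredoxin to destroy hydrogen peroxide, and the oxidative arm of the pentose phosphate pathway supplies much of the NADPH. Many of the listed genes, together with quinone, carbonyl and heme-handling enzymes, are known targets of the transcription factor NRF2, which acts through antioxidant response elements and is active in epidermis exposed to oxidants and electrophiles.

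RNA came from forepaw skin of 8 mice aged 8 weeks, on the C57Bl/6 background, each on its own Affymetrix array. The 4 Krt16 null mice (2 males, 2 females) lack keratin 16, since bacterial LacZ replaces the coding sequence of the gene in every cell, and their samples were labelled as lesions. Their 4 Krt16 WT littermates (2 males, 2 females) were labelled as normal skin, so the effects of genotype and of lesion cannot be told apart. The differences below are between lesional null and normal WT skin. Signals are on the log2 scale after the authors' normalization, where a difference of 1 is a doubling, and differences are null minus WT. A gene was called higher or lower where limma's test over all 30718 genes gave an adjusted p (Benjamini-Hochberg) under 0.05.

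Krt16 itself gave 6.83, 6.88, 6.89 and 6.99 in null skin, against 8.48, 8.20, 7.05 and 9.66 in WT skin. The groups did not overlap, but limma gave an adjusted p of 0.0615 for the difference of -1.45 (SE 0.44), and where its probes lie relative to the replaced sequence was not examined here. Over all genes, 7.06% were called higher and 5.98% lower in null skin. Of 10 epidermal markers 0 rose and 2 fell (Krt9 and Lor), and their summed signal was 109.72 to 111.27 in null arrays and 111.52 to 113.61 in WT arrays. Krt9 differed by -2.465 and Lor by -0.35, and the 8 uncalled markers by -0.09 to 0.20. Most of the gap in the sums was thus that of Krt9. Krt5, a basal keratin that defines epidermis, averaged 12.11 ± 0.09 in null and 12.00 ± 0.12 in WT skin (SD, n = 4 each). The whole forepaw skin also carried other tissues. Of 18 skeletal muscle genes 0 rose and 15 fell, and their summed signal was 142.56 to 151.91 in null arrays and 155.98 to 170.07 in WT arrays. Of 12 sweat and sebaceous gland genes 6 fell and 0 rose (summed signal 80.88 to 82.20 in null arrays, 81.50 to 85.86 in WT arrays). The falls were the sebaceous and lipid genes Scd1, Scd3, Elovl3, Awat2, Mc5r and Far2. The rest were not called: Aqp5 differed by -0.23, and Krt7, Krt8, Krt18, Krt19 and Foxa1 by 0.07 to 0.37. Of 10 macrophage genes 3 fell and 0 rose (summed signal 54.73 to 61.72 in null arrays, 61.16 to 66.85 in WT arrays). Of 7 T cell genes 2 rose and 0 fell (summed signal 28.10 to 29.03 in null arrays, 25.86 to 27.11 in WT arrays). The rises were Icos by 1.22 and Cd3g by 0.20, and 5 of the 7 differences lay above 0 and 2 below. Only Icos in null skin had a group mean above 4.46, the highest array median of the negative control probe sets. The other T cell values are thus near or under the floor. Of 9 neutrophil genes 1 rose (Cxcr2, by 0.435) and of 6 endothelial genes 1 rose (Pecam1, by 0.27), with 0 falls in either list. Of 5 fibroblast genes 1 fell (Dcn, which differed by -0.83 with its arrays overlapping) and 0 rose. Of 8 adipocyte and 3 erythroid genes 0 were called. The part of these shifts in the results below was not tested, and in whole skin fewer cells of a type and less RNA per cell cannot be told apart.

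Among the 32 genes, 9 were called higher and 6 lower in null skin, which is 15 called, against 13.0% of all genes called in either direction. The median size of the difference, whatever its sign, was 0.26 among the 32 and 0.08 over all genes. The median signed difference was 0.00 for the 32 and 0.01 for all genes, with 16 of the 32 above 0 and 16 below. The genotypes were fully separated in 19 of the 32, against 18.9% of all genes: all null arrays were above all WT arrays in 10 (10.1% of all genes) and below them in 9 (8.77% of all genes). The rises were the aldo-keto reductase gene Akr1b8, the quinone reductase gene Nqo1, Pgd, Srxn1, Txn1, Cbr3, Taldo1, Hmox1 and Prdx3, and the falls were Aldh3a1, Txnip, Cat, Ephx1, Nqo2 and Sod1. Akr1b8 and Nqo1 changed by more than 2-fold and the other 13 called genes by less. All signals of the 32 genes lay at 5.05 or above, over the array medians of the negative control probe sets (4.26 to 4.46). The shares and medians over all genes, here and below, include dim genes. In a fit on the 17709 genes above the negative control median, 2199 were called higher and 2043 lower, with 9 and 7 of the 32. With the 15359 genes above the median gene these counts were 2123 and 1970, with 9 and 8 of the 32. The background share called is thus larger among brighter genes than the 13.0% over all genes.

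**Figure D1:**
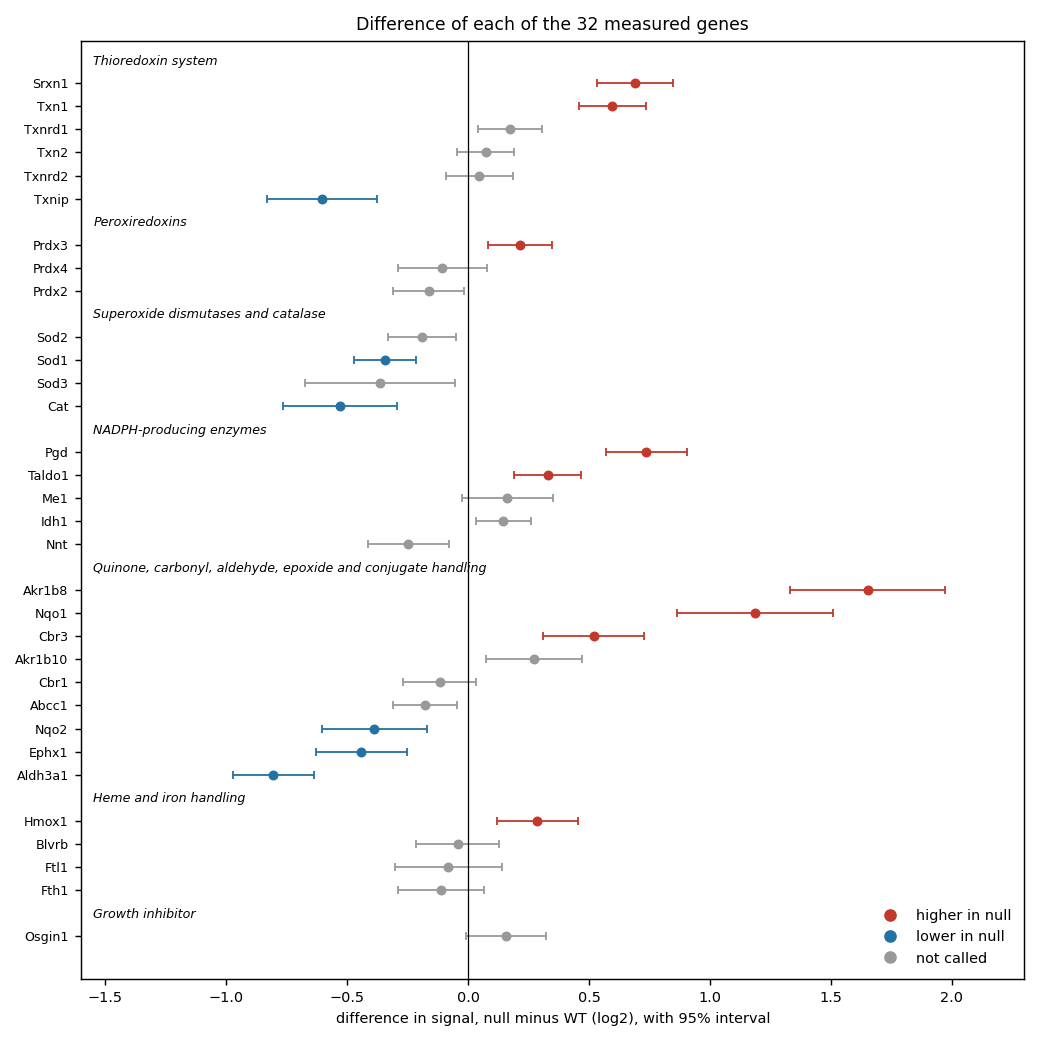
Difference in signal (null minus WT, log2 scale, points) with its 95% interval from limma (bars) for the 32 measured genes, grouped by role and coloured by call. Called genes lie on both sides of 0: Akr1b8 at 1.65 and Nqo1 at 1.19 are the highest, and Aldh3a1 at -0.80 is the lowest.

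Promoter windows from 250 bases before to 50 bases after the transcript start, taken from RefSeq on GRCm38.p6, were available for 27 of the 32 genes (35 windows in all). They were searched on both strands for the core of the antioxidant response element, TGACNNNGC, and for its other form TGAGNNNGC, which was added after the windows were read. The AP-1 motif TGANTCA can overlap either form. The windows of the 3 called genes that hold the first form are shown on the strand of the gene, with matches to either form in capitals.
Pgd (chr4:149166033-149166332, minus strand): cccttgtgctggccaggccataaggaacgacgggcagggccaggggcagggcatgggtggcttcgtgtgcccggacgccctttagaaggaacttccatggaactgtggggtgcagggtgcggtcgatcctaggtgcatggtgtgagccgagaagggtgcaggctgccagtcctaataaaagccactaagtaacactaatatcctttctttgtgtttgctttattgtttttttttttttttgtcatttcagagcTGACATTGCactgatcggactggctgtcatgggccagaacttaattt
Srxn1 (chr2:152105274-152105573, plus strand): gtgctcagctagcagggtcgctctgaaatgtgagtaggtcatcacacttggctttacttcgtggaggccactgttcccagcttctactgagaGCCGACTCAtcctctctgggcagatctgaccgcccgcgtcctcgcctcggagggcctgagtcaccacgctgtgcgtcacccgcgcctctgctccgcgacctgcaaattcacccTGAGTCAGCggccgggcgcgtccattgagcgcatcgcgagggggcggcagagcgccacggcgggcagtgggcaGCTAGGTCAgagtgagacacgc
Sod1 (chr16:90220512-90220811, plus strand): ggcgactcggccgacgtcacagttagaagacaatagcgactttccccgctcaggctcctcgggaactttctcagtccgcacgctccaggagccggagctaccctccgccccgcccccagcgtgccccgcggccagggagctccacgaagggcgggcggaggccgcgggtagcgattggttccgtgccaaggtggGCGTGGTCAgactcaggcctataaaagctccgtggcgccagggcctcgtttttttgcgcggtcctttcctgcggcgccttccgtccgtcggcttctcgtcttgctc
Srxn1, whose signal was higher in null skin, holds 3 matches, of which TGAGTCAGC, starting 45 bases before the transcript start, also contains an AP-1 motif. Pgd, also higher, has a match in 1 of its 2 windows, starting at base 4 of the transcript and so not before it. The bases before that start end in a T-rich run and cag, the form of a splice acceptor. Those after it can be read as codons without a stop, so this window may not be a promoter. The other Pgd window, at chr4:149166656, held no match, and which start is used in skin was not examined. Sod1, lower in null skin, has a match 56 bases before its start. The first form occurred in 5 of the 35 windows (14.3%), against 12.4% of all 32851 windows, and the TGAG form in 6 (17.1%), against 17.6% of all windows. These shares are near the background, and a match is a run of letters, not a binding site. The windows of Akr1b8 and Nqo1, the greatest rises, held no match to either form, and Hmox1 had no window. Elements farther from the start than the windows reach were not searched.

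Within the thioredoxin system, the cytosolic thioredoxin gene and the sulfiredoxin gene rose and the gene of the thioredoxin inhibitor fell. Txn1, which encodes cytosolic thioredoxin, gave 9.34 and 9.33 in null males and 9.22 and 9.21 in null females, against 8.76 and 8.71 in WT males and 8.50 and 8.74 in WT females. Every null array lay above every WT array, and the difference was 0.60 (SE 0.06, limma adjusted p = 0.000566), or 1.51-fold. Srxn1 encodes sulfiredoxin, which restores peroxiredoxins that have been over-oxidised. Its signal was 8.07 and 8.36 in null males and 8.17 and 8.18 in null females, against 7.51 and 7.60 in WT males and 7.43 and 7.48 in WT females. The groups again did not overlap (difference 0.69, SE 0.07, limma adjusted p = 0.000496, 1.61-fold).

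Txnip, whose product binds and inhibits thioredoxin and restrains glucose uptake, moved the other way. It gave 9.74 and 9.47 in null males and 9.57 and 9.71 in null females, against 9.99 and 10.13 in WT males and 10.26 and 10.54 in WT females. Txnip was thus lower on each null array than on any WT array, with a difference of -0.60 (SE 0.10, limma adjusted p = 0.00591). Txnrd1, the cytosolic thioredoxin reductase gene, had 8.26, 8.17, 8.37 and 8.23 in null arrays and 8.11, 8.12, 8.02 and 8.08 in WT arrays. Its groups did not overlap either, but the difference of 0.17 (95% interval 0.04 to 0.31) was not called (limma adjusted p = 0.0943). The mitochondrial partners Txn2 and Txnrd2 differed by 0.07 (-0.04 to 0.19) and 0.05 (-0.09 to 0.18), neither called.

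**Figure D2:**
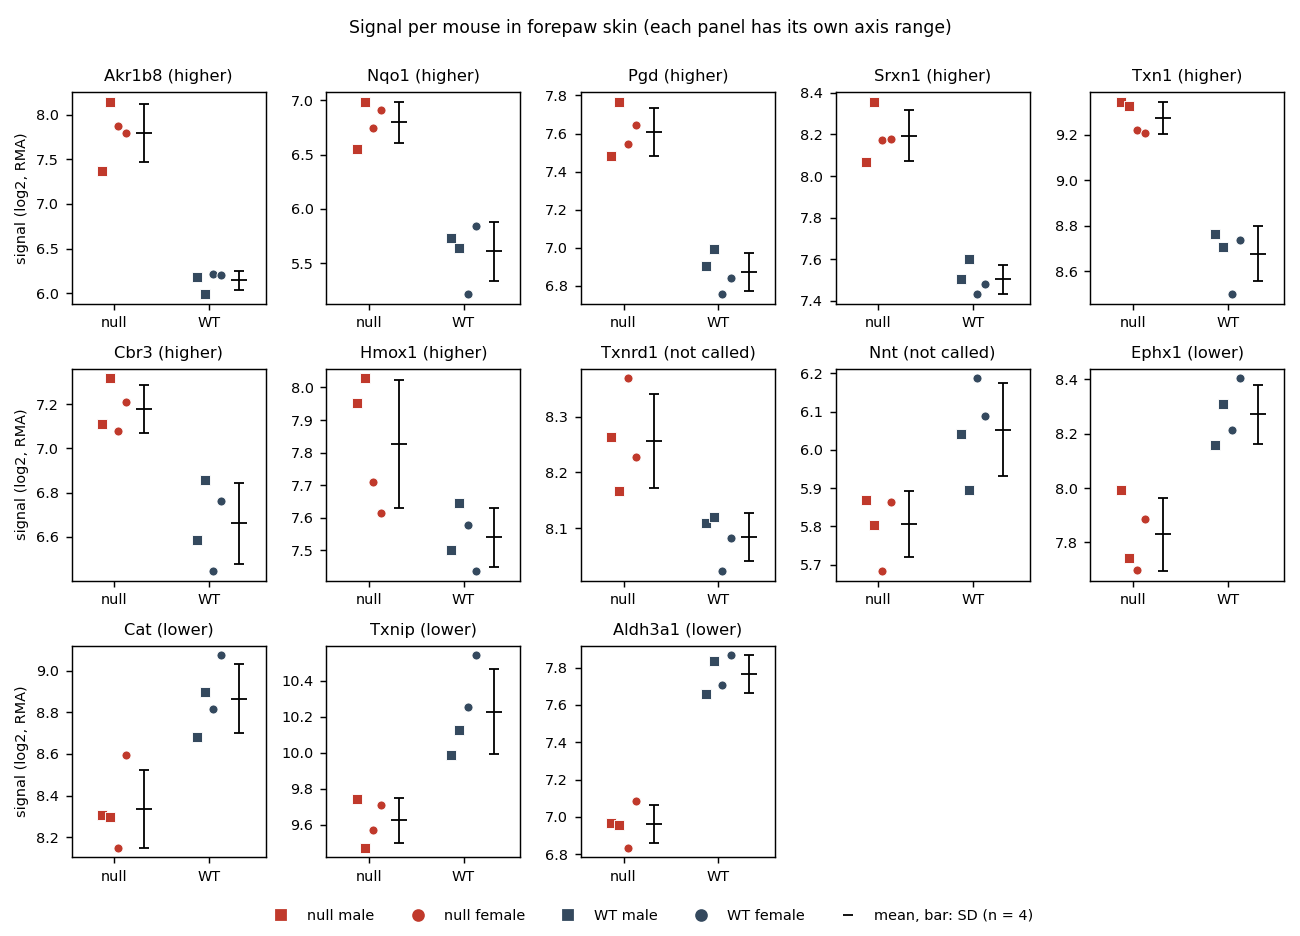
Signal on each array (log2 scale, vertical axis with its own range in each panel) for the 10 called genes with a difference of at least 0.4 and for Txnrd1, Hmox1 and Nnt, with squares for males, circles for females, and the mean with its SD (n = 4) beside each group. Null and WT points are separate in every panel except Hmox1, where null females lie within or just above the WT range.

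Of the 3 peroxiredoxin genes measured, 1 was called, against 13.0% of all genes called in either direction. Prdx3, which encodes the mitochondrial peroxiredoxin, ranged over 7.40 to 7.57 in null arrays and 7.19 to 7.30 in WT arrays. The groups did not overlap, and the difference was 0.21 (SE 0.06, limma adjusted p = 0.0411). This call was marginal: with same-numbered mice of a sex as pairs the adjusted p was 0.0545, and it was 0.0714 to 0.127 with any 1 of 6 arrays left out (all but null male 1 and WT female 1). Prdx2, abundant in red cells and cytosol, differed by -0.16 (95% interval -0.31 to -0.02, limma adjusted p = 0.144). Prdx4, of the endoplasmic reticulum, differed by -0.11 (-0.29 to 0.08).

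All 4 genes of superoxide dismutases and catalase had lower means in null skin, as did 13926 of all 30718 genes. Of the 4, 2 fell, against 5.98% of all genes called lower. Cat encodes catalase, the peroxisomal enzyme that splits hydrogen peroxide. It gave 8.31 and 8.30 in null males and 8.15 and 8.59 in null females, against 8.68 and 8.90 in WT males and 8.81 and 9.07 in WT females. The highest null array lay just under the lowest WT array, and the difference was -0.53 (SE 0.10, limma adjusted p = 0.0119). Sod1, the cytosolic copper-zinc superoxide dismutase gene, ranged over 7.41 to 7.48 in null arrays and 7.71 to 7.87 in WT arrays, a difference of -0.34 (SE 0.06, limma adjusted p = 0.00566). The mitochondrial Sod2 (6.41 to 6.52 in null arrays, 6.58 to 6.84 in WT arrays) differed by -0.19 and the secreted Sod3 (5.16 to 5.65 in null arrays, 5.53 to 6.10 in WT arrays) by -0.36. Neither was called (limma adjusted p = 0.0771 and 0.126), although Sod3 was called with same-numbered mice as pairs (adjusted p = 0.0331).

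Among enzymes that make or feed NADPH, both genes of the pentose phosphate pathway measured among the 32 rose, against 7.06% of all genes. Pgd encodes phosphogluconate dehydrogenase, a NADPH-forming step of the oxidative arm. It gave 7.48 and 7.77 in null males and 7.55 and 7.65 in null females, against 6.91 and 6.99 in WT males and 6.76 and 6.84 in WT females. The groups stood well apart, with a difference of 0.74 (SE 0.07, limma adjusted p = 0.000503, 1.67-fold). Taldo1, of the non-oxidative arm, ranged over 7.27 to 7.44 in null arrays and 6.87 to 7.11 in WT arrays (difference 0.33, SE 0.06, limma adjusted p = 0.0101).

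The other NADPH-linked genes were not called. Me1, of cytosolic malic enzyme, differed by 0.16 (95% interval -0.03 to 0.35) and Idh1, of cytosolic isocitrate dehydrogenase, by 0.14 (0.03 to 0.26, limma adjusted p = 0.0989). Nnt encodes the mitochondrial transhydrogenase that makes NADPH from NADH, and is known to carry a deletion in some C57BL/6 substrains; the labels give no substrain. It had 5.87, 5.80, 5.68 and 5.86 in null arrays and 6.04, 5.90, 6.19 and 6.09 in WT arrays. The groups did not overlap, and the difference of -0.25 (SE 0.07) just missed the threshold (limma adjusted p = 0.0605). It was called without WT male 2 (-0.30, adjusted p = 0.0456).

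The enzymes that handle quinones, carbonyls, aldehydes and epoxides held both the greatest rises and the greatest fall of the 32. Akr1b8, an aldo-keto reductase that reduces reactive aldehydes, gave 7.37 and 8.15 in null males and 7.87 and 7.80 in null females, against 6.18 and 5.99 in WT males and 6.22 and 6.20 in WT females. The lowest null array stood more than 1 unit above the highest WT array, and the difference was 1.65 (SE 0.14, limma adjusted p = 0.000216, 3.14-fold). Nqo1 encodes a reductase that takes quinones directly to hydroquinones with NAD(P)H. It had 6.55 and 6.98 in null males and 6.74 and 6.91 in null females, against 5.73 and 5.64 in WT males and 5.22 and 5.84 in WT females. Nqo1 was thus higher in every null array than in any WT array (difference 1.19, SE 0.14, limma adjusted p = 0.00128, 2.28-fold). Cbr3, a carbonyl reductase gene, gave 7.11, 7.32, 7.08 and 7.21 in null arrays and 6.58, 6.86, 6.44 and 6.76 in WT arrays, again without overlap (difference 0.52, SE 0.09, limma adjusted p = 0.00798).

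Aldh3a1, an aldehyde dehydrogenase that clears lipid aldehydes and is best known from the cornea, fell. Its signal was 6.97 and 6.95 in null males and 6.83 and 7.09 in null females, against 7.66 and 7.83 in WT males and 7.70 and 7.87 in WT females. Every null array was well under every WT array, with a difference of -0.80 (SE 0.07, limma adjusted p = 0.000308), so that WT skin had 1.75 times the signal of null skin. Ephx1, the microsomal epoxide hydrolase gene, gave 7.99, 7.74, 7.70 and 7.89 in null arrays and 8.16, 8.31, 8.21 and 8.40 in WT arrays. It fell by 0.44 (SE 0.08, limma adjusted p = 0.0102), without overlap.

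Nqo2, a relative of Nqo1 that uses a different hydride donor, ranged over 5.22 to 5.51 in null arrays and 5.52 to 5.89 in WT arrays. It was called lower (-0.39, SE 0.10, limma adjusted p = 0.0292), but not with any 1 of 6 arrays left out (adjusted p 0.0564 to 0.097; all but null male 1 and WT male 2). The closest relative of Akr1b8 on the list, Akr1b10, had 6.09 to 6.26 in null arrays and 5.67 to 6.14 in WT arrays. Its difference of 0.27 (95% interval 0.08 to 0.47) was not called (limma adjusted p = 0.0757), and was called without WT female 2 (0.35, adjusted p = 0.0275). Cbr1 differed by -0.12 (-0.27 to 0.03) and the conjugate exporter gene Abcc1 by -0.18 (-0.31 to -0.05), neither called. Akr1b8 and Akr1b10 are close paralogs, so some of the signal of each may come from the other, which was not examined.

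Of the 4 heme and iron genes only Hmox1 was called, against 13.0% of all genes called in either direction, and its groups overlapped. Hmox1 encodes heme oxygenase, which breaks heme down to biliverdin, iron and carbon monoxide. It gave 7.95 and 8.03 in null males and 7.71 and 7.61 in null females, against 7.50 and 7.64 in WT males and 7.58 and 7.44 in WT females. Null males stood above all WT arrays, while null female 2 lay under WT male 2. The difference was 0.29 (SE 0.07, limma adjusted p = 0.0349), and it was not called without the sex term (adjusted p = 0.0744), after repeated quantile normalization (0.0547) or median centring (0.0517), or with any 1 of 6 arrays left out (0.0714 to 0.113; all but WT female 1 and null female 2).

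The other members of this group showed small differences. Fth1 and Ftl1, of the ferritin heavy and light chains, differed by -0.11 (95% interval -0.29 to 0.07) and -0.08 (-0.30 to 0.14), and the biliverdin reductase B gene Blvrb by -0.04 (-0.21 to 0.13). One of the further gene IDs on the probe set of Ftl1 is that of a ferritin pseudogene. Osgin1, an oxidative stress-induced growth inhibitor gene, differed by 0.16 (-0.01 to 0.32), uncalled.

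Some related genes on the list shifted relative to each other and some did not separate the genotypes. The difference between the log2 signals of 2 genes on the same array was set out for 7 such pairs, chosen after the values were seen and given as a description. For Nqo1 minus Nqo2 it was 1.04 to 1.76 in null arrays and -0.67 to 0.12 in WT arrays, and for Akr1b8 minus Akr1b10 it was 1.28 to 1.89 in null and 0.06 to 0.39 in WT arrays. Txn1 minus Txn2 was 2.70 to 2.82 in null and 2.09 to 2.32 in WT arrays, and Cbr3 minus Cbr1 was 0.97 to 1.23 in null and 0.38 to 0.57 in WT arrays. In these 4 pairs the null arrays lay above the WT arrays without overlap. For Nqo1 and Nqo2 this had to be so, since each was separated on its own, in opposite directions. Akr1b8, Txn1 and Cbr3 were also separated on their own while their relatives overlapped, so these pairs largely restate the single genes. In the other 3 pairs (Txnrd1 with Txnrd2, Sod1 with Sod2 and Fth1 with Ftl1) the arrays of the genotypes overlapped.

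**Figure D3:**
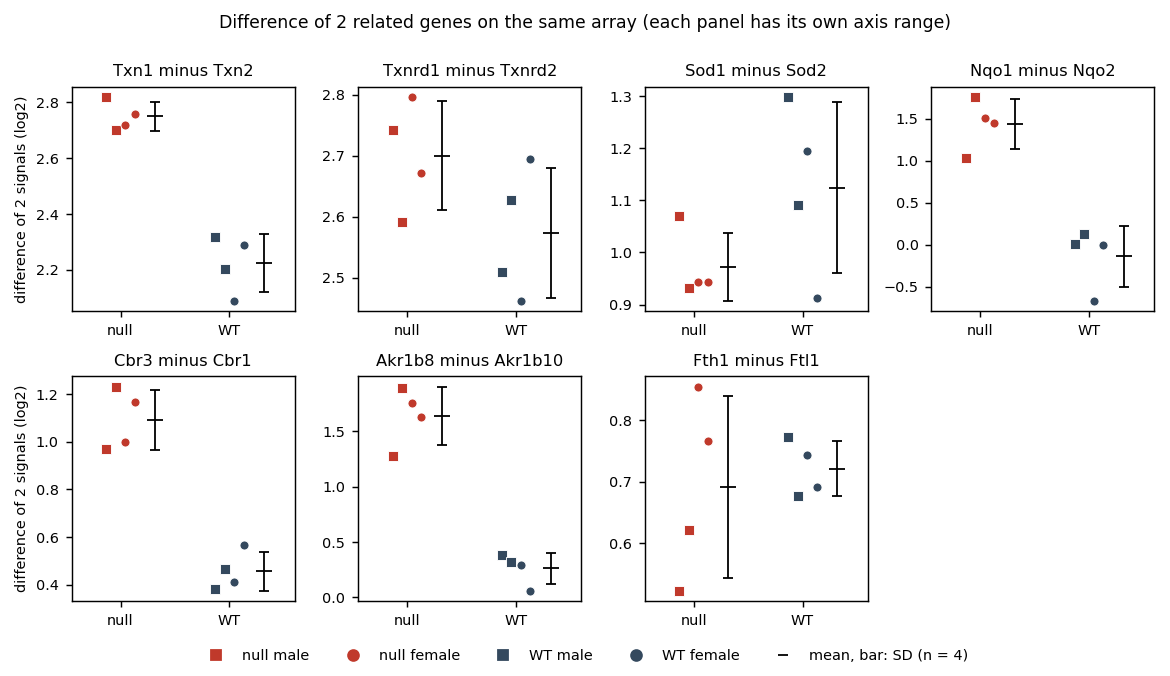
Difference between the log2 signals of 2 related genes on the same array (vertical axis, own range in each panel) in null and WT arrays, with squares for males, circles for females, and the mean with its SD (n = 4). Null and WT arrays are separate for Txn1 minus Txn2, Nqo1 minus Nqo2, Cbr3 minus Cbr1 and Akr1b8 minus Akr1b10, and overlap in the other 3 panels.

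Each sex was also compared on its own, since the design holds 2 males and 2 females of each genotype. All 15 called genes had differences of the same sign in males and females. The calls rest on both sexes together, so this match of signs was largely given in advance. Akr1b8 differed by 1.67 in males and 1.63 in females, and Nqo1 by 1.08 and 1.30. Txnip differed by -0.45 in males and -0.76 in females, and Hmox1 by 0.42 in males and 0.16 in females. A test of the sex difference in these effects (limma, interaction of genotype and sex) called 0 of the 32 genes, against 0.00651% of all genes. At an unadjusted p under 0.05 it picked 1 of the 32, against 4.26% of all genes. That gene was Ftl1, which differed by 0.15 in males and by -0.31 in females (limma adjusted p = 0.974).

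**Figure D4:**
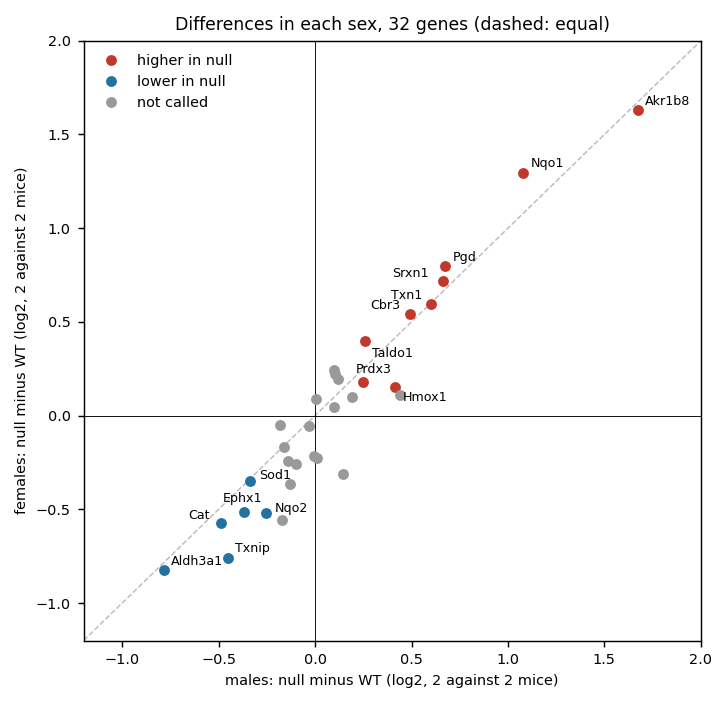
Difference null minus WT (log2 scale) in males (horizontal axis, 2 against 2 mice) and females (vertical axis, 2 against 2 mice) for the 32 genes, coloured by the call over all mice, with equality as the dashed line. The 15 called genes, called on both sexes together, lie above 0 on both axes or below 0 on both. Akr1b8 is at 1.67 and 1.63. Txnip, at -0.45 and -0.76, lies furthest below the line among the called genes.

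A wider list of 73 genes of the same pathways, of which 68 were measured, moved in both directions as well: 12 were called higher and 10 lower, with a median difference of 0.03, against 7.06% of all genes called higher and 5.98% lower. These shares include dim genes. With only the 15359 genes above the median gene fitted, 2123 were called higher and 1970 lower, with 15 and 12 of the wider list. The wider list was thus not set clearly apart from genes of such signal. The lower count was 5 without WT male 1, 4 without null male 2, 3 without null female 1 and 6 without null female 2. Over all genes the lower count was 1838 in the main fit, and 1075, 840, 843 and 1111 in these 4 fits. Among 17 other redoxin and sulfoxide repair genes 3 rose and 3 fell. Glrx, of glutaredoxin, rose by 0.63 and Txnl1, a thioredoxin-like gene, by 0.39 (limma adjusted p = 0.0142 and 0.00559). The sestrin genes Sesn3 and Sesn1 fell by 0.53 and 0.42 (limma adjusted p = 0.0331 and 0.035), with the arrays of Sesn3 overlapping. Sesn3 differed by -0.33 and was not called with the mean of its probe sets (adjusted p = 0.0598), and Sesn1 was not called after median centring (adjusted p = 0.0538).

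Of 15 other NADPH-linked genes 4 rose and 1 fell, the fall being near the share of all genes called lower. The rises were led by enzymes of mitochondrial folate metabolism, Aldh1l2 (0.93, SE 0.08, limma adjusted p = 0.000273) and Mthfd2 (0.55, SE 0.05, limma adjusted p = 0.000473). The mitochondrial malic enzyme gene Me3 fell by 0.33 (limma adjusted p = 0.0458), and was not called after repeated quantile normalization (0.0576) or median centring (0.0527). The other rises were Me2, the other mitochondrial malic enzyme gene (0.35, limma adjusted p = 0.0234), and Rpia, a pentose phosphate isomerase gene (0.28, limma adjusted p = 0.0216), both named after their values were seen. Me2 lost its call with any 1 of 5 arrays left out (null male 1, null male 2, null female 1, WT male 1 and WT male 2; adjusted p 0.0561 to 0.0826), and Rpia with any 1 of 4 left out (null male 2, null female 2, WT male 1 and WT male 2; adjusted p 0.0546 to 0.0778). The pentose phosphate genes Pgls, Rpe, Tktl1 and H6pd differed by -0.02, 0.11, 0.05 and 0.07, none called. Of 24 other carbonyl and xenobiotic genes 4 rose and 4 fell. The retinal dehydrogenase gene Aldh1a3 rose by 2.31 (SE 0.10, limma adjusted p = 4.21e-06) and the epidermal epoxide hydrolase gene Ephx3 by 1.46 (SE 0.11, limma adjusted p = 0.000112). Their relatives on the same list Aldh2, of mitochondrial acetaldehyde oxidation, and Aldh1a1, another retinal dehydrogenase gene, fell by 0.46 and 0.45 (limma adjusted p = 0.000791 and 0.0142), with the arrays of Aldh1a1 overlapping.

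Of 12 other heme and iron genes 1 rose, near the share of all genes called higher, and 2 fell. Alas1, of the first step of heme synthesis, rose by 0.38 (limma adjusted p = 0.0063), while Fech, of its last step, fell by 0.35 (limma adjusted p = 0.0111) and the ferrireductase gene Steap3 by 0.52 (limma adjusted p = 0.0219). Txnl1, Aldh1l2, Mthfd2, Aldh1a3, Ephx3, Aldh2, Alas1 and Fech kept their calls with each array left out in turn. Glrx, Sesn1, Sesn3, Me3, Aldh1a1 and Steap3 each lost the call without at least 1 array (adjusted p 0.0506 to 0.135); without null female 1 all of these 6 lost it.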

How the data were processed

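RNA from whole forepaw skin was labelled with the WT PLUS kit and hybridised to 8 single-colour Affymetrix arrays, per the labels' protocols. The authors deposited log2 signals, 1 per probe set and array, made with Partek and RMA per the submitters' processing notes; for their versions, the settings and the build the sources used here say nothing. RMA compresses large fold changes, and arrays have no read depth, so their number limits the precision.

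Of 72688 probe sets, 6732 controls were left out. Probe sets with exactly 1 gene after symbols were updated through RefSeq (GRCm38.p6) numbered 31280, and the brightest stood for each of 30718 genes. No filter on dim genes was applied. The model was fitted with limma 3.58.1 under R 4.3.3 (intensity trend, sex as covariate, 5 residual degrees of freedom) and the test was checked on simulated data. Tables and plots used Python 3.11.15, numpy 2.4.6, pandas 2.3.3 and matplotlib 3.10.9.

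The genes, lists and tests were chosen with earlier results of these data known. All measured genes of the list are named; values per array are given for called genes with a difference of at least 0.4 and, called or not, for Nqo1, Txnip (both also of that size), Txnrd1, Hmox1 and Nnt. From each wider list the 2 greatest rises and 2 greatest falls among called genes are named. Deviations of same-numbered null and WT mice from their group means had correlations across genes of 0.316 for male and 0.115 for female mice, both above 0.1, so a fit with these 4 pairs as a block was an alternative; the labels do not state that a number marks a litter or day. Each array was also left out, each sex was fitted alone, and the sex term was dropped. Further alternatives changed the values (quantile normalization repeated, or arrays centred on their medians), the genes kept (2 filters on low signal), the summary of probe sets (their mean), or limma's settings (array weights, robust prior, trend off).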

Additional observations from a re-analysis of the deposited data

Results flagged for a closer look

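In each genotype's 4 arrays, each of the 32 genes was checked for an array standing far from the other 3, in 64 groups in all. In 2 of them the gap to the nearest array exceeded the limit for 4 values, and chance gives about 1 in 20 such groups. Akr1b8 was 5.99 in WT male 2, against 6.18 to 6.22 in the other WT arrays, and without that array it stayed called. Ftl1 was 7.81 in WT female 1, against 7.51 to 7.56 in the other WT arrays. The same array had the highest WT signal of the neutrophil granule genes Ngp (7.03, against 3.17 to 3.49 in the other WT arrays) and Ltf (6.61, against 3.86 to 4.06) and of the adipocyte gene Retn (6.90, against 5.26 to 5.55); their part in the Ftl1 value was not tested.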

How the results depend on the processing

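Of the 15 called genes, 12 kept their call in all 8 fits that left out an array and in all 10 other fits on all arrays; the exceptions were Prdx3, Hmox1 and Nqo2. No called gene changed sign in any alternative, all of which reuse these arrays. The number called higher was 7 to 9 and the number called lower 5 to 7 with arrays left out in turn; in the wider list these ranges were 9 to 14 and 3 to 10. On males alone 5 genes were higher and 2 lower (wider list 6 and 2), and on females alone 3 and 1 (wider list 3 and 0, with 13 lower at an unadjusted p under 0.05 by limma); these fits hold 2 mice per genotype. Over all 30718 genes, 2170 were called higher and 1838 lower in the main fit. These counts were 1207 to 2290 and 840 to 1865 with arrays left out in turn. They were 801 and 388 on males alone, and 231 and 142 on females alone. Among uncalled genes, Prdx4 turned to 0.01 and Ftl1 to 0.15 in males alone, while with arrays left out in turn Blvrb ranged over -0.11 to 0.03 and Ftl1 over -0.13 to 0.01, both above 0 only without WT female 1. Calls were gained by Nnt, Akr1b10, Sod2 and Abcc1: Nnt without the sex term (adjusted p = 0.0494) or with dim genes left out (0.0427 and 0.0397), Akr1b10 with array weights (0.0285), Sod2 with genes above the median level (0.0456) and Abcc1 after repeated quantile normalization (0.025). Prdx3 lost its call after repeated quantile normalization (0.083) or median centring (0.0578). With pairs as a replicate block 8 genes were higher and 7 lower, against 2545 and 2021 over all genes. Apart from Prdx3 and Sod3 the block changed no call among the 32. The causes of these changes were not tested.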
